A study of Mus musculus with 6 samples.

Results

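The transcripts of 9 genes that bind, make, clear or sense retinoic acid were examined in mouse embryonic fibroblasts (MEFs): Crabp1, Crabp2, Stra6, Aldh1a2, Aldh1a3, Cyp26b1, Rara, Rarb and Rarg. They were taken by gene symbol from the 55565 genes of the count and FPKM tables, and they were chosen by a measured value, the higher Crabp2 level of KO MEFs in these same libraries, so the differences of all 9 between genotypes are descriptions, and where the fit across all genes calls any of them nothing is read from it. Bulk RNA sequencing covered 3 WT libraries (WT1, WT2 and WT3) and 3 Mcm8 knockout libraries (KO1, KO2 and KO3). In the KO line of mice an exon of Mcm8, a helicase gene of DNA replication and repair, had been deleted with CRISPR-Cas9. Heterozygous parents of a C57BL/6J by ICR mixed strain were mated to obtain both genotypes. MEFs of both came from the E13.5 embryo trunk, without head, tail, limbs, heart and liver, were immortalized with a lentivirus carrying SV40gp6 under puromycin selection, and grew in DMEM with 10% serum, with no added retinoid named in the sources used here. The study calls the 3 libraries of each genotype biological repeats but does not say whether they stand for different embryos or for different cultures. The spread between these libraries may therefore be technical. The p-values of the fit across all genes rest on the trend of that spread over all genes, not on each gene's own spread.

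Retinoic acid is made from vitamin A within the cell. Retinol is taken up and oxidized reversibly to retinaldehyde, retinaldehyde dehydrogenases (RALDH) oxidize this to retinoic acid, and CYP26 enzymes degrade it. Small cytosolic proteins (CRABP) carry retinoic acid, and nuclear receptors (RAR), paired with RXR, bind it on DNA elements of repeated half-sites. In the embryonic trunk this signal patterns the body axis through Hox genes, and several genes of the pathway are themselves switched on by it.

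Library totals lay from 12722979 to 19019695 counts in WT and from 15954793 to 21022755 in KO. Mcm8 itself had 176, 233 and 238 counts in WT and 89, 74 and 66 in KO. Among replicates, WT1 stood furthest apart: the chi-square per degree of freedom of its counts was 13.1 against WT2 and 12.1 against WT3, compared with 4.17 between WT2 and WT3 and 2.56 to 2.92 among the KO libraries. The summed level of 4 Y-linked genes was 24.3 to 25.9 CPM (counts scaled to library size) in WT and 108 to 126 CPM in KO, and Xist was at 940 to 1359 CPM in WT and 474 to 494 CPM in KO, so sex-linked transcripts moved with genotype, and their part in the results was not tested. The 9 fibroblast markers summed to 19693 to 21649 CPM in WT and 20574 to 21210 CPM in KO, a sum dominated by collagen and vimentin, and 5 of the 9 passed. Col1a1 (log2 fold change 0.20) and Col3a1 (0.29) rose, while Vim (-0.19), Pdgfrb (-0.74) and the surface marker Thy1 (-1.03, adjusted p = 3.44e-47) fell. In contrast, the sums of 4 marker lists of other cells were higher in every KO library. Mesothelial markers summed to 11.9 to 15.0 CPM in WT and 53.3 to 60.8 CPM in KO (Krt19 and Msln rose, Bnc1 fell, Lrrn4 at 0, of 7), epithelial markers to 0.642 to 1.18 and 5.53 to 6.68 CPM (Krt8 and Krt18 rose, Krt5 and Esrp1 at 0, of 8), neural and Schwann markers to 30.9 to 33.3 and 105 to 108 CPM (Stmn2 and Tubb3 rose, Sox10 at 0, of 6), and chondrocyte markers to 14.0 to 16.2 and 35.8 to 36.5 CPM (Acan and Sox9 rose, Matn1 at 0, of 4). Endothelial markers (Tie1 at 0, of 5), leukocyte markers (Adgre1 and Tyrobp at 0, of 5) and skeletal muscle markers (Myod1 and Ckm at 0, of 5) stayed at or under 4.33 CPM in every library. The part of these other markers in the results below was not tested.

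On the length-scaled FPKM (fragments scaled by gene length and library size), the 9 genes covered very different levels. In WT the order of mean FPKM was Crabp1, Rarg, Rara, Crabp2, Cyp26b1, Aldh1a3, Rarb, Aldh1a2 and Stra6, and in KO it was Crabp1, Rarg, Crabp2, Rara, Cyp26b1, Rarb, Aldh1a3, Stra6 and Aldh1a2. Crabp2 and Rara thus exchanged places, with no overlap between their libraries in either genotype. Neighbours in the order whose libraries overlapped were Rarb and Aldh1a2, and Aldh1a2 and Stra6, in WT, and Cyp26b1 and Rarb, and Rarb and Aldh1a3, in KO.

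The 2 cytosolic binding proteins differed in opposite directions. Crabp1 (chromosome 9, 54672032 to 54680394, plus strand; coordinates as deposited, read as GRCm39), which holds retinoic acid in the cytosol, was at 1136, 854 and 954 FPKM in WT1, WT2 and WT3 and at 671, 712 and 679 FPKM in KO1, KO2 and KO3. Every KO library was below every WT library. The mean was 981 ± 143 FPKM in WT and 687 ± 21.5 FPKM in KO (SD, n = 3 each), and the fitted log2 fold change from WT to KO was -0.51 (standard error, SE, 0.06). Without WT1, the library with the highest Crabp1, it was -0.40. In a bulk sample, fewer cells of a type and less RNA per cell cannot be told apart, nor can more cells and more RNA per cell where a gene is higher. Crabp1 was one of the most abundant transcripts of these MEFs: by FPKM it ranked 12, 16 and 14 among all genes in the WT libraries and 22, 20 and 21 in the KO libraries.

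Crabp2 (chromosome 3, 87855973 to 87860683, plus strand), which brings retinoic acid to RAR in the nucleus, was at 5.33, 5.82 and 5.22 FPKM in the WT libraries and at 21.8, 21.2 and 21.2 FPKM in the KO libraries, on counts of 90, 108 and 130 in WT and 615, 467 and 451 in KO. The KO libraries lay close together and far above WT. The mean was 5.46 ± 0.314 FPKM in WT and 21.4 ± 0.367 FPKM in KO, a ratio of 3.92, with a log2 fold change of 1.97 (SE 0.13) that ran from 1.94 to 2.02 with any 1 library omitted. Because Crabp1 was so much more abundant, Crabp2 still formed a small share of CRABP transcripts: 0.467, 0.676 and 0.545% of the summed FPKM in WT and 3.15, 2.89 and 3.03% in KO. There were 213, 147 and 183 FPKM of Crabp1 for each FPKM of Crabp2 in WT, and 30.8, 33.6 and 32.0 in KO. The sum of both genes was 987 ± 143 FPKM in WT and 709 ± 21.2 FPKM in KO.

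Transcripts for uptake, synthesis and clearance were scarce. Stra6 (chromosome 9, 57971071 to 58061279, plus strand), the membrane receptor that takes up retinol from its serum carrier, had 0 counts in all WT libraries and 8, 6 and 5 counts in KO. Against a floor of 3 counts over the WT libraries together, its pooled level was 5.34-fold higher in KO. This ratio leaves out the counting error of the KO counts. Even there it reached only 0.0644, 0.0617 and 0.0533 FPKM. Aldh1a2 (chromosome 9, 71123071 to 71203525, plus strand), the main RALDH of the early embryo trunk, had 0, 1 and 1 counts in WT and 1, 1 and 1 in KO, so both genotypes were at the floor and no fold is given.

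Aldh1a3 (chromosome 7, 66040638 to 66077265, minus strand), another RALDH, was at 0.373, 0.355 and 0.345 FPKM in WT and 0.163, 0.299 and 0.269 FPKM in KO, on 16 to 30 counts per library. Although the genotypes did not overlap, KO1 made much of the distance. The log2 fold change was -0.57 (SE 0.37) with all libraries and -0.33 without KO1. Aldh1a3 supplied 93.4 ± 5.93% of the FPKM summed over Aldh1a1, Aldh1a2 and Aldh1a3 in WT and 87.9 ± 3.26% in KO, and the sum itself was only 0.383 ± 0.00878 FPKM in WT and 0.276 ± 0.0745 FPKM in KO. Cyp26b1 (chromosome 6, 84548396 to 84570890, minus strand), which degrades retinoic acid, was at 0.512, 0.705 and 0.457 FPKM in WT and 0.535, 0.347 and 0.418 FPKM in KO. Its genotypes overlapped, with a log2 fold change of -0.34 (SE 0.27) that was -0.14 without WT2, -0.21 without KO2 and -0.54 without KO1.

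**Figure D1:**
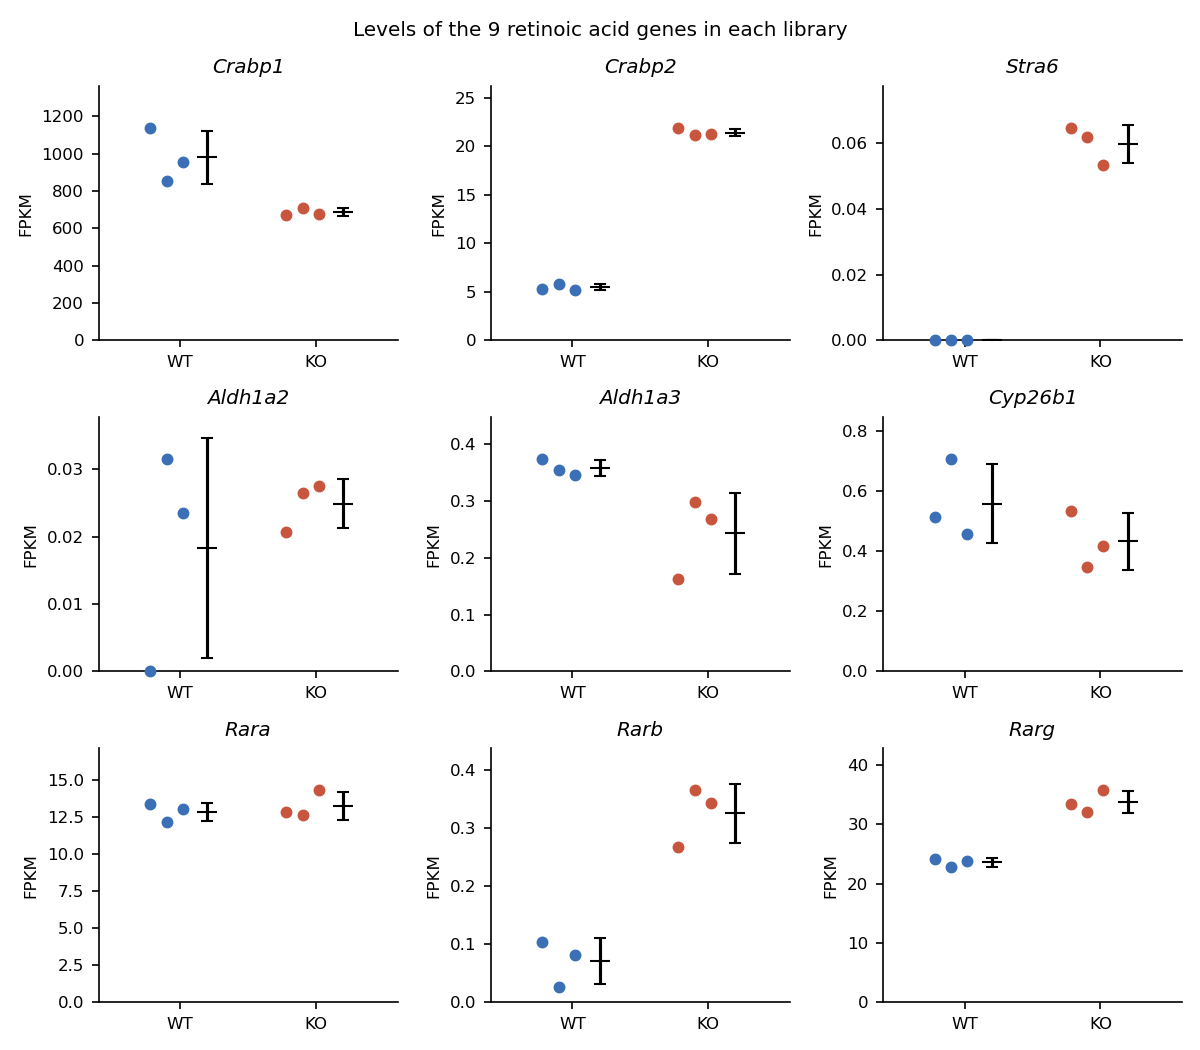
FPKM of each of the 9 genes (vertical axis, linear and starting at 0, scaled for each gene) in the 3 WT and 3 KO libraries (points), with the mean and SD beside them. Crabp2 lay at 5.22 to 5.82 FPKM in WT and 21.2 to 21.8 FPKM in KO, Crabp1 was lower in every KO library, and Rara and Cyp26b1 overlapped between genotypes.

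The 3 receptors did not move alike. Rara (chromosome 11, 98818644 to 98865768, plus strand), the broadly expressed RAR, was at 13.4, 12.2 and 13.0 FPKM in WT and 12.8, 12.6 and 14.3 FPKM in KO. These ranges overlapped, with a log2 fold change of 0.04 (SE 0.08). Rarg (chromosome 15, 102143373 to 102165952, minus strand), the RAR of mesenchyme and skin, was at 24.2, 22.8 and 23.9 FPKM in WT and 33.4, 32.1 and 35.7 FPKM in KO. All KO libraries exceeded all WT libraries, with means of 23.6 ± 0.740 and 33.7 ± 1.81 FPKM and a log2 fold change of 0.52 (SE 0.07).

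Rarb (chromosome 14, 5650540 to 6038924, plus strand), a receptor gene that retinoic acid itself induces, was the scarcest receptor, with 7, 2 and 8 counts in WT and 30, 32 and 29 counts in KO, or 0.104, 0.0270 and 0.0807 FPKM and 0.267, 0.364 and 0.342 FPKM. The genotypes did not overlap. The ratio of pooled counts per library size was 4.52, with a 95% exact interval of 2.67 to 8.09 that covers counting error only, and the log2 fold change was 2.17 (SE 0.49). Rarb overlaps Top2b, a topoisomerase gene on the opposite strand, by 4624 bases. Top2b had 3589 to 5090 counts per library and fell slightly in KO (log2 fold change -0.25, adjusted p = 0.00513), and since the strand setting of the counting was not stated, reads of Rarb and of Top2b in the shared bases cannot be told apart.

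Rarg made up 64.6 ± 0.449% of the summed RAR FPKM in WT and 71.4 ± 0.498% in KO. Rara made up 35.2 ± 0.346% and 28.0 ± 0.433%, and Rarb 0.191 ± 0.103% and 0.688 ± 0.117%. The ratio of Rarg to Rara FPKM was 1.81, 1.87 and 1.83 in WT and 2.61, 2.55 and 2.50 in KO, with no overlap. Summed RAR transcripts were at 36.5 ± 1.39 FPKM in WT and 47.3 ± 2.71 FPKM in KO, a difference carried almost wholly by Rarg.

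**Figure D2:**
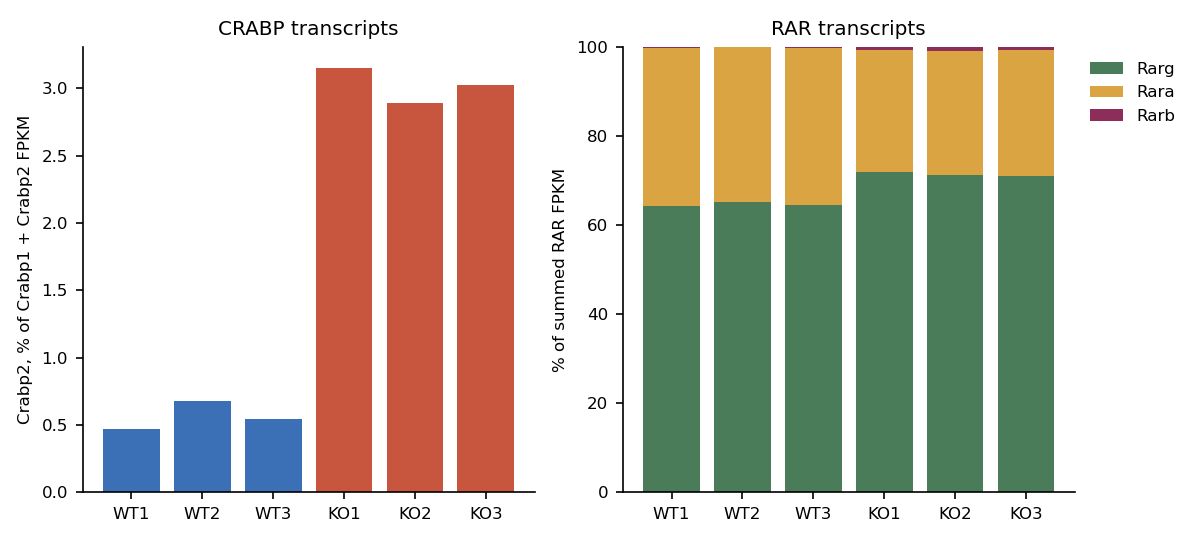
Left, Crabp2 as a percent of the summed Crabp1 and Crabp2 FPKM in each library (blue WT, red KO); right, the percent of summed RAR FPKM held by Rarg, Rara and Rarb in each library. Crabp2 held 0.467 to 0.676% in WT and 2.89 to 3.15% in KO, and the mean Rarg share was 64.6% in WT and 71.4% in KO.

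A gene was called here when it was more than 2-fold different at an adjusted p below 0.05 (edgeR's quasi-likelihood test, Benjamini-Hochberg adjustment over all 26898 genes with counts), and it passed when the adjusted p alone was below 0.05. Of the 9 genes, 3 were called higher in KO (Crabp2, Stra6 and Rarb), where 1.75% of all genes tested were, and 0 were called lower, where 0.665% were. At an unadjusted p below 0.05 no member was more than 2-fold lower either, and DESeq2 called 2 higher, giving Stra6 no adjusted p, and 0 lower. By adjusted p alone 4 passed higher, the fourth being Rarg, and 1 lower, Crabp1, beside 4.97% and 4.03% of all genes tested. The libraries of the genotypes did not overlap for 6 of the 9 genes, beside 21.7% of all genes tested. Since this contrast led to the choice of the genes, nothing is read from these counts. The Stra6 call rested on 19 counts in all and was lost without WT3, KO1 or KO2 and with the replicate number as a block.

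**Figure D3:**
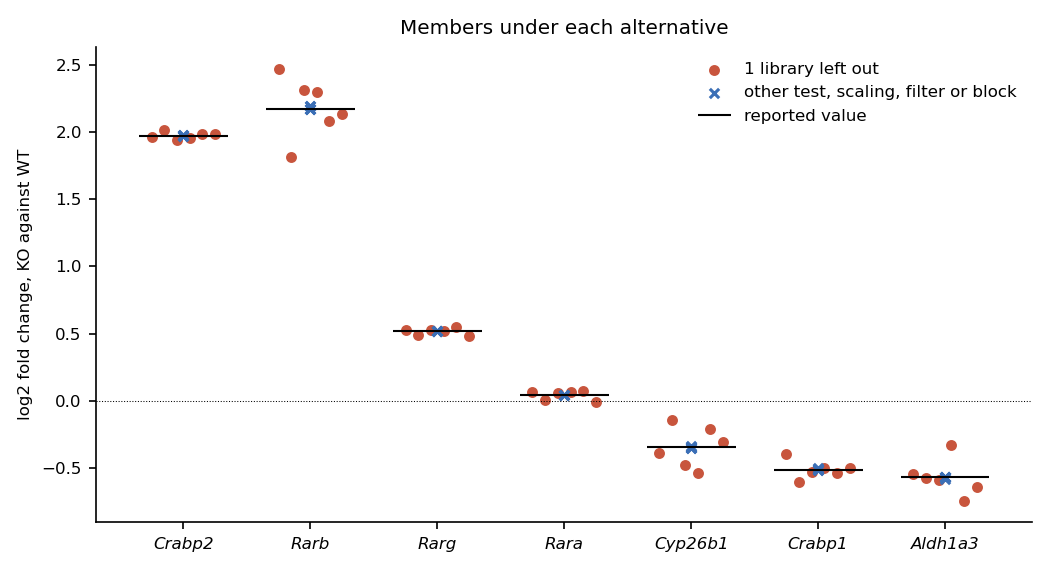
Log2 fold change of KO against WT for the 7 genes above the count floor: the black line is the value reported, red points leave out 1 library and blue crosses use another test, scaling, filter or block. Crabp2 stayed between 1.94 and 2.02 and Rarb between 1.81 and 2.47, while Rara lay around 0.

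The rest of the retinoid pathway was followed in 57 further genes in 5 lists, 48 of them with counts: 10 rose in KO (20.8%, against 4.97% of all genes tested), 3 fell (6.25%, against 4.03%) and 35 did not pass. The median log2 fold change of the 48 was 0.06, and that of all genes tested was 0.01. Of the 36 with a mean of at least 1 CPM, 8 rose and 2 fell. Among all 13222 genes at that level, 1201 rose and 1042 fell. In retinol transport and storage, 2 of 5 genes with counts rose and 0 fell (0 also at an unadjusted p below 0.05 and with DESeq2, which passed 1 higher), with a median of 0.18 that was 0.40 without WT3 and 0.77 under filterByExpr, which left 2 of the genes, while Rbp2, Stra6l, Ttr, Lrat and Bco1 had 0 counts throughout. Of the genes that rose, Rbp4, the serum carrier that Stra6 recognizes, had 1, 0 and 9 counts in WT and 27, 8 and 13 in KO (log2 fold change 2.01, SE 0.69, adjusted p = 0.0235). That call was lost with DESeq2 (adjusted p = 0.137) and without WT1, WT2, KO1 or KO3, and the log2 fold change was 4.28 without WT3. Dgat1, an acyltransferase that can esterify retinol, did not pass (6.57 and 7.45 FPKM, adjusted p = 0.398), nor did Rbp7, a retinol-binding protein, or Bco2, a carotenoid-cleaving enzyme, both at 5 counts or fewer per library.

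Of 12 enzymes that convert retinol and retinaldehyde into each other, 1 rose, 3 fell and 8 did not pass, with a median log2 fold change of -0.02. Dhrs3, which reduces retinaldehyde back to retinol and is itself induced by retinoic acid, rose from 0.475 ± 0.112 to 1.01 ± 0.0594 FPKM (log2 fold change 1.10, SE 0.31, adjusted p = 0.00499). Adh7, an alcohol dehydrogenase that can oxidize retinol, fell from 7.82 ± 0.867 to 3.22 ± 0.405 FPKM (log2 fold change -1.27, SE 0.11, adjusted p = 1.48e-27). Dhrs9, a retinol dehydrogenase, fell from 2.42 ± 0.124 to 0.848 ± 0.0939 FPKM (log2 fold change -1.51, SE 0.18, adjusted p = 1.28e-15). Adh1, another alcohol dehydrogenase, had 10, 12 and 15 counts in WT and 3, 3 and 2 in KO, 5.48-fold lower on pooled counts (counting interval 2.51 to 13.6), with an adjusted p of 0.0140 that rose above 0.05 without WT3, KO1 or KO3. Rdh10, the main retinol-oxidizing enzyme of the embryo, named here after its values were seen, was at 2.53 ± 0.224 FPKM in WT and 2.89 ± 0.165 FPKM in KO and did not pass (log2 fold change 0.20, adjusted p = 0.493). The most abundant enzymes among those of the list that did not pass were the retinal reductases Rdh11 (19.1 and 17.4 FPKM, adjusted p = 0.440) and Rdh14 (6.98 and 6.59 FPKM, adjusted p = 0.802), the formaldehyde-metabolizing Adh5 (17.0 and 17.3 FPKM, adjusted p = 0.885) and the carbonyl reductase Dhrs4 (8.28 and 9.50 FPKM, adjusted p = 0.381).

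**Figure D4:**
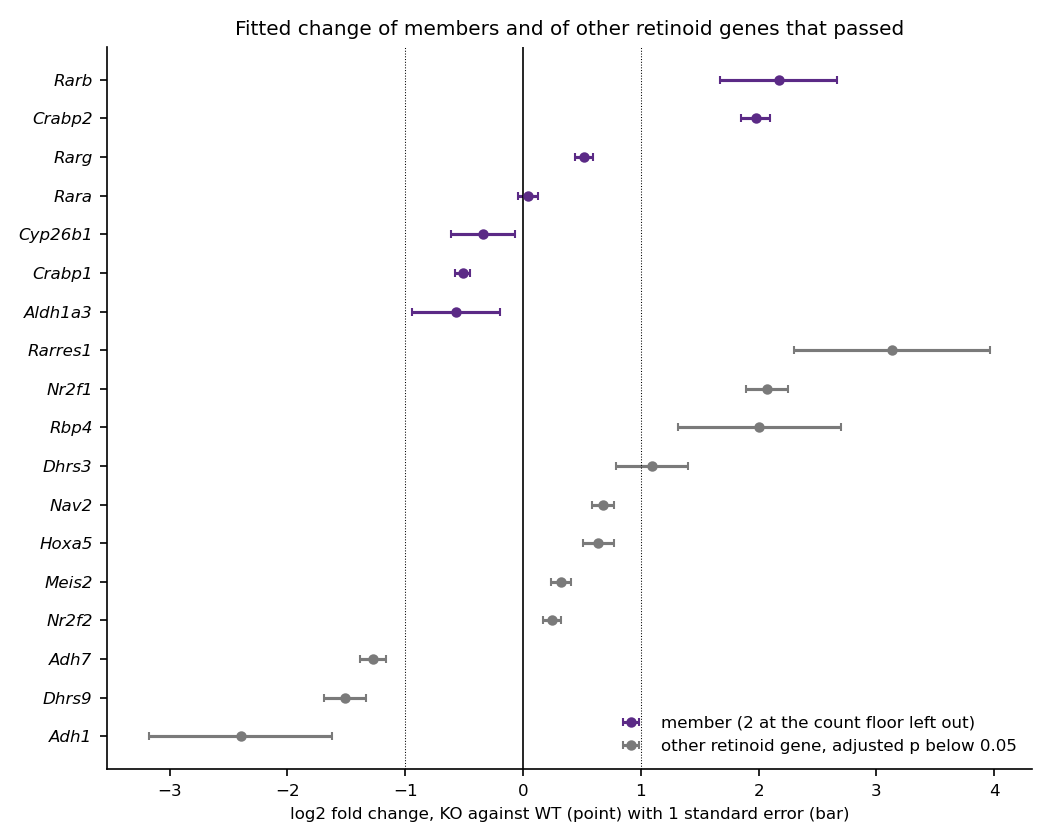
Fitted log2 fold change of KO against WT with 1 standard error for the 7 retinoic acid genes above the count floor (purple) and 11 of the 13 further retinoid genes that passed (grey); dotted lines mark a 2-fold change. Crabp2 (1.97) and Rarb (2.17) lay beside Nr2f1 (2.07) on the higher side, and Adh1, Dhrs9 and Adh7 on the lower side.

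No further gene of retinoic acid synthesis and clearance passed, by edgeR or by DESeq2, and 0 of the 3 with counts reached an unadjusted p below 0.05. Cyp26c1 was at 0.374 FPKM in WT and 0.181 FPKM in KO (adjusted p = 0.415) and Cyp26a1, a strongly retinoic acid-induced clearance enzyme, at 0.0766 and 0.0730 FPKM (adjusted p = 0.986). Aldh1a1, a RALDH of adult tissues, was at the count floor in both genotypes. The median of these 3 scarce genes was -0.14, but 0.15 with the replicate number as a block, and Aldh1a7 had 0 counts. Among receptor partners and coregulators 0 of 10 genes with counts passed, also with DESeq2, and at an unadjusted p below 0.05 there were 1 higher and 2 lower, with a list median of 0.02 and Rxrg at 0 counts. Rxra, the partner of RAR on DNA, was at 15.6 ± 0.763 FPKM in WT and 16.0 ± 0.218 FPKM in KO (adjusted p = 0.864). The corepressor Ncor1 (21.5 and 22.8 FPKM, adjusted p = 0.572) and Fabp5 (31.8 and 28.4 FPKM, adjusted p = 0.216), a fatty acid-binding protein that can also carry retinoic acid, did not pass either.

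Of 23 genes known to respond to retinoic acid, 21 had counts (Hoxb1 and Stra8 had none), 9 rose (42.9%, against 4.97% of all genes tested) and 0 fell (against 4.03%), and 12 did not pass. Their median log2 fold change was 0.30, that of all genes tested 0.01. At an unadjusted p below 0.05, 11 were higher and 0 lower, and DESeq2 also passed 9 higher and 0 lower. Of the 16 with a mean of at least 1 CPM, 8 rose and 0 fell, beside 1201 and 1042 of all 13222 genes at that level. Dhrs3, described above, is 1 of the 9, and Cyp26a1 is also a gene of this list. The list was drawn up with earlier results of these data known, so its direction is not independent evidence.

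Nr2f1, which encodes the orphan receptor COUP-TFI, had the smallest adjusted p of the list, rising from 0.645 ± 0.150 to 2.67 ± 0.103 FPKM (log2 fold change 2.07, SE 0.17, adjusted p = 8.87e-32). Its relative Nr2f2 (COUP-TFII) was at 7.68 ± 0.305 FPKM in WT and 9.10 ± 0.189 FPKM in KO, a log2 fold change of 0.25 (SE 0.08, adjusted p = 0.0257) whose adjusted p rose above 0.05 without WT3 or any 1 of the KO libraries. Rarres1, named for its induction through RAR, had 0, 1 and 4 counts in WT and 22, 17 and 15 in KO (pooled ratio 9.11, counting interval 3.67 to 29.2, adjusted p = 2.56e-04). The fitted log2 fold change of Rarres1 was 3.13, and it was 2.67 without WT1 and 4.49 without WT3. Nav2, a cytoskeletal regulator known to be induced by retinoic acid, rose from 0.767 ± 0.139 to 1.23 ± 0.0764 FPKM (log2 fold change 0.68, SE 0.10, adjusted p = 1.27e-10).

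Among homeobox genes, Hoxa5 rose from 5.78 ± 0.692 to 8.96 ± 0.676 FPKM (log2 fold change 0.64, SE 0.13, adjusted p = 2.00e-05). Meis2, a cofactor of Hox proteins, rose from 3.69 ± 0.189 to 4.61 ± 0.166 FPKM (log2 fold change 0.32, adjusted p = 0.00328), which no longer passed without KO1. The most abundant genes among those of the response list that did not pass were Hoxb4 (4.94 and 5.31 FPKM, adjusted p = 0.684) and Hoxb5 (3.86 and 3.75 FPKM, adjusted p = 0.927), which pattern the trunk axis, Meis1 (2.41 and 2.64 FPKM, adjusted p = 0.565), and Tgm2, a transglutaminase (2.34 and 2.84 FPKM, adjusted p = 0.252).

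**Figure D5:**
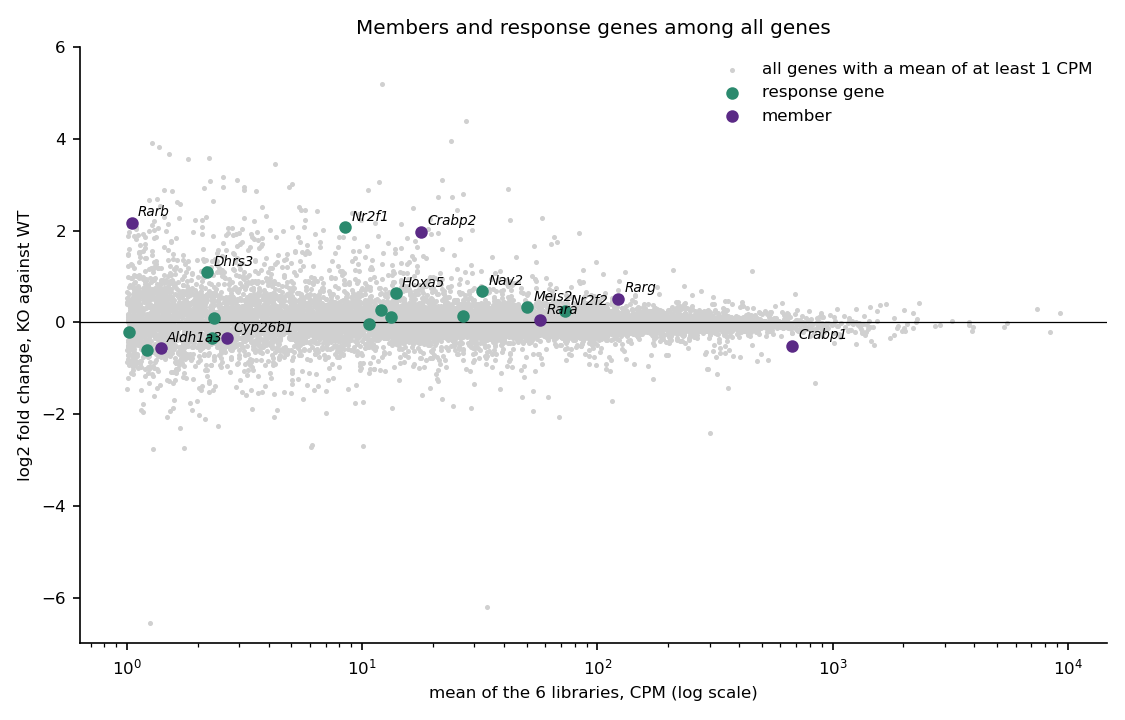
Log2 fold change of KO against WT over the mean CPM of the 6 libraries (log axis) for all genes with a mean of at least 1 CPM (grey), with the retinoic acid genes (purple) and response genes (green; all but 2, named where they passed). Crabp2 is at 1.97, Rarb at 2.17 and Nr2f1 at 2.07, and Crabp1, the most abundant of those coloured, lay at -0.51.

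Promoter sequence was searched for the arrangement that RAR and RXR are best known to bind, a direct repeat of 2 half-sites with a spacer of 5 bases. The half-sites searched were AGGTCA, the variant GGGTCA, the variant AGTTCA and the variant GGTTCA, on both strands, in RefSeq windows of GRCm38.p6 from 250 bases before to 50 bases after each gene start. Of 32851 windows 32, or 0.0974%, held such a repeat. The 14 windows of 7 of the 9 genes (Crabp2 and Aldh1a3 had no window) held it once, in Rarb, 53 bases before the start on the gene's own strand. Among 54 windows of the other retinoid genes it also stood once, in Cyp26a1, 32 bases before the start on the opposite strand. Both are shown because they are the only such repeats among these genes, with half-sites in capitals and the spacer in lower case, each read on the minus strand of GRCm38.p6, which is also the strand of Rarb in that build, whereas the deposited coordinates put Rarb on the plus strand.
Rarb, chr14:16575513-16575529: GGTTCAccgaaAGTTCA
Cyp26a1, chr19:37697776-37697792: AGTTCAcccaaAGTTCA
Rarb was higher in every KO library, whereas Cyp26a1 was at 0.0766 FPKM in WT and 0.0730 FPKM in KO. Spacers of 1 and 2 bases occurred in 0.222% and 0.268% of windows and in none of the 14 windows. Among the 54 windows of the other retinoid genes, the 1-base form stood once, in Bco1, which had 0 counts, and the 2-base form in none. Across the genome 31 genes held the 5-base form, 11 of them with counts here and 3 with a mean of at least 1 CPM. Of the 11, 1 passed higher, Rarb, and 1 lower, Syndig1 (log2 fold change -0.83, adjusted p = 0.00924). Of all genes tested, 4.97% passed higher and 4.03% lower. Rarb was among the genes chosen with this contrast known, so nothing is read from these counts. A match of letters is a description and not a site of binding.

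The genes whose profile over the 6 libraries was most like that of Crabp2 were found by the root mean square difference of centred log2 CPM, among 13221 genes with a mean of at least 1 CPM. The nearest was Eif2s3y, a Y-linked translation factor gene, at a difference of 0.0746. Then came Gjb2 (0.0819), which encodes a gap junction connexin, H2-T10 (0.0970), a polymorphic pseudogene of the major histocompatibility complex, Kdm5d (0.0985), a Y-linked histone demethylase, and Tinagl1 (0.104), a secreted matrix protein. Eif2s3y was at 7.84 to 9.12 CPM in WT and 31.1 to 34.6 CPM in KO, Kdm5d at 5.25 to 5.70 and 22.6 to 25.3 CPM. So 2 of the 5 nearest profiles were of Y-linked genes, which follow the sex of the cells. Crabp2 varied little within a genotype, so nearness here mostly reflects a similar log2 fold change (1.81 to 2.14 for the 5, 1.97 for Crabp2). The share of Y-linked genes among all those compared was not counted, so nothing is read from the 2 of 5. The part of cell sex in the Crabp2 difference was not tested.

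Of the 9 genes, 3 lie on chromosome 9, with 3.29 Mb between Crabp1 and Stra6 and 13.1 Mb between Stra6 and Aldh1a2, and each of the others stands alone on its chromosome. Genes within 100 kb were looked at after the values of the 9 genes were known. Of 54 such neighbours with counts 5 rose and 1, Top2b, fell, which is 11.1%, beside 9.0% of all genes tested. Among the 33 neighbours with a mean of at least 1 CPM the 6 were 18.2%, beside 17.0% of all such genes, so the share was near the background. Near Crabp2, 1 of 10 neighbours passed, Nes, which encodes the intermediate filament nestin, and it rose from 145 ± 6.75 to 221 ± 11.1 CPM (log2 fold change 0.61, SE 0.07, adjusted p = 1.67e-15). None of the 5 neighbours of Crabp1 passed. Near Rarg, 3 of 16 rose: Igfbp6, an IGF-binding protein, from 26.0 to 49.9 CPM (adjusted p = 6.51e-22), Csad, an enzyme of taurine synthesis, from 22.6 to 29.9 CPM (adjusted p = 0.00157), and Itgb7, an integrin of leukocytes, from 1.10 to 4.46 CPM (adjusted p = 2.33e-11). Near Rara, where the receptor itself had a log2 fold change of 0.04, 1 of 10 rose, Igfbp4, another IGF-binding protein, from 9.12 to 22.6 CPM (adjusted p = 2.29e-23).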

How the data were processed

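Bulk RNA-seq libraries of 3 WT and 3 KO MEF samples were used, grouped by their labels. The authors prepared them with the NEBNext Ultra kit and deposited gene counts (raw) and the matching FPKM. The submitters' processing notes name CASAVA 1.8, fastp, HISAT2 2.0.5, featureCounts 1.5.0-p3, DESeq2 1.20.0 and the build GRCm38. The study's methods name an Ensembl release of GRCm39, and 0 of 9 starts in the deposited tables matched RefSeq GRCm38, so gene coordinates are given as deposited and read as GRCm39. Promoter windows are RefSeq GRCm38.p6 and were not mixed with them. The deposited FPKM were proportional to counts over gene length. Of the loci, 151 had no Ensembl gene and were kept.

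The 9 genes, the pathway lists and the marker lists were chosen with earlier results of these data known. The genes named are the 9, each pathway gene with an adjusted p below 0.05, the 4 most abundant in each pathway list that did not pass, and the 5 profiles nearest to Crabp2; 3 of the pathway genes are counted but not reported here. Counts of genes with FPKM above 0 in at least 1 library (26898) were normalized with TMM and tested with edgeR 4.0.16 (glmQLFit and glmQLFTest, R 4.3.3) without covariates, with Benjamini-Hochberg adjustment. The prior degrees of freedom were infinite, so genes that vary more than the trend over all genes get p-values that are too small. Values after ± are SDs over 3 libraries. The floor was 3 counts over the libraries of a genotype. Scripts were tested on simulated data. Alternatives were DESeq2 1.42.0, RLE scaling, filterByExpr, FPKM above 0 in every library, pseudocounts of 1 and 0.1, CPM in place of FPKM for shares, the replicate number as a block, and each library left out. Counts of calls among genes averaging 1 CPM or more, or outside X and Y, were added after seeing the data. Deviations of same-numbered libraries correlated at -0.03, -0.02 and 0.04, so the numbers were not taken as pairs. Nothing is said of pairing by the labels. Python 3.11.15 was used for all else. Columns of the authors' comparisons were not used.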

Additional observations from a re-analysis of the deposited data

How the results depend on the processing

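The counts over all genes kept within 1.5 times the reported value under every alternative, except that 650 genes passed lower without KO3 and 680 without KO1, against 1083. With 1 library left out, 391 to 477 genes were called higher, 157 to 196 lower, 956 to 1650 passed higher and 650 to 1624 lower. With the replicate number as a block, 445 and 158 genes were called higher and lower, 2 of the 9 genes were called higher, and 11 pathway genes, 1 more than without it, passed higher and 3 lower. Stra6 lost its call there (adjusted p = 0.0748). Of the 9 genes and the pathway genes that had passed, no other crossed the adjusted p of 0.05 under the block. Same-numbered libraries did not deviate together. With 1 library left out, the log2 fold change of Rara ran from -0.0087 (without KO3) to 0.076, and the fitted value of Aldh1a2, on 5 counts in all, from -0.12 (without WT1) to 0.74. The median of the 3 synthesis and clearance genes (-0.14) turned to 0.15 with the replicate block, ran from -0.62 to -0.15 with 1 library left out and was -1.07 under filterByExpr, which left 1 gene, and no gene of that list had FPKM above 0 in every library. The transport and storage median (0.18) ran from 0.13 to 0.40 with 1 library left out and was 0.77 under filterByExpr and 0.76 with FPKM above 0 in every library, each of which left 2 genes. Those causes were not tested. On CPM, not scaled by length, Crabp2 held 0.924% of CRABP in WT and 4.88% in KO, Rarg 64.0% and 70.8% of RAR, and Aldh1a3 92.0% of RALDH in KO. With pseudocounts of 1 and 0.1 the log2 difference of Rarb was 0.31 and 1.34, that of Crabp2 1.80 and 1.95, that of Aldh1a3 -0.13 and -0.44, and that of Cyp26b1 -0.12 and -0.30. Depth limits Stra6, Aldh1a2, Rarb, Adh1, Rbp4 and Rarres1, which had few counts.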
